A study of Mus musculus with 16 samples.

Results

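The nuclear genes for complexes III, IV and V of the mitochondrial respiratory chain were followed in the hearts of mice that received AAV9-GFP or AAV9-Cardinal and then sham surgery or pressure overload. Members were the protein-coding genes of the count table whose mouse symbol begins with Uqcr or Atp5, or with Cox and a digit, together with Cyc1 and Cycs. This rule gave 55 of 55573 genes, and the 52 with at least 10 counts in 4 or more mice were analysed. They comprised 9 subunits of complex III, cytochrome c, 16 of 18 listed subunits of complex IV, 9 assembly factors of complex IV and 17 of 18 genes of complex V. The 3 genes set aside were Cox8c with 0 counts in all 16 mice, Cox7b2 with at most 4 counts in a mouse, and a second gene ID carrying the symbol Atp5o (ENSMUSG00000116933) with 298 counts in 1 mouse and none in the others. A count of 0 allows up to 3 counts, which is between 0.137 and 0.182 CPM in these libraries before scaling (CPM, counts relative to library size), and this limit covers counting error only.

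The libraries came from polyadenylated RNA of the heart apex of 16 wild-type male mice. Groups of 4 mice combined 1 of 2 viruses, AAV9-GFP or AAV9-Cardinal, with 1 of 2 operations, sham surgery or transverse aortic constriction (TAC). All mice received an AAV9 vector on postnatal day 1, driven by the cardiac troponin T promoter, which restricts expression of its cargo to cardiomyocytes. The cargo was GFP or the mouse long noncoding RNA Cardinal. Surgery was performed at 25 to 30 g body weight, either as TAC, which raises the pressure against which the left ventricle ejects, or as a sham operation without the ligature, and hearts were taken 4 weeks later. The comparisons addressed how TAC changed these genes under each virus and whether the virus changed that response.

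Complex III passes electrons from ubiquinol to cytochrome c, complex IV passes them from cytochrome c to oxygen, and complex V (ATP synthase) uses the resulting proton gradient to make ATP. Each complex is built from nuclear subunits and a few subunits encoded by mitochondrial DNA, and cardiomyocytes, which depend on oxidative metabolism, hold large amounts of all of them. Complex IV subunits 6a, 7a and 8 exist as a heart or muscle form (Cox6a2, Cox7a1, Cox8b) and a form found in most tissues, usually called the liver form (Cox6a1, Cox7a2, Cox8a).

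Gene counts summed to between 16441997 and 21904589 per mouse, and genes of mitochondrial DNA took 30.3% to 34.0% of them. Cardinal, counted as Gm12295, ranged from 3.42 to 7.24 CPM in mice with AAV9-GFP and from 18.3 to 93.9 CPM in mice with AAV9-Cardinal. Within groups, every pair of libraries differed beyond sampling noise. The labels number the samples within groups without saying that they are separate animals, so the p-values measure the spread between these samples. The markers of liver (Alb, Apoa1) had 0 counts, those of skeletal muscle and fat are given beside the ratios of heart to liver forms, and the cardiomyocyte markers summed to between 39528 and 52680 CPM per mouse. AAV9-Cardinal sham replicate 4 had the lowest total, and AAV9-Cardinal TAC replicate 1 stood apart from its group in several members, so results that rest on these mice are also given without them.

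The promoters were described by features that the rule did not use. RefSeq (GRCm38.p6) gave a window of 250 bases before to 50 bases after the start for 38 of the 52 members, Cox6a2 not among them. The CpG dinucleotides numbered 7 in the window of Cox7a1 and 2 in that of Cox8b, against 20 for Cox7a2, 19 for Cox8a and 32 for Cox6a1. The median was 19 over the windows of members and 14 over those of protein-coding genes. Low counts were not limited to the heart forms. The window of Cox7b, which is neither a heart nor a liver form, held 5 CpG, fewer than that of Cox7a1. That of Cox6b2 held 10. The 30 bases just before each RefSeq start are shown with each CpG in capitals, so that the sparse CpG of both heart forms can be read beside the liver forms.
Cox7a1, chr7:30184141-30184170, plus strand: agtgggCGtggcttgggattcccttagggt
Cox8b, chr7:140900447-140900476, minus strand: gtgacaggagacagctgcagctctccaccc
Cox7a2, chr9:79759854-79759883, minus strand: ggtaaggatagcttCGgaggtcCGgaggct
Cox8a, chr19:7217617-7217646, minus strand: ttgtccCGaCGtcatttcCGaaatacttcc
Cox6a1, chr5:115348959-115348988, minus strand: CGtccccatttcCGcttcCGgCGCGcCGgt

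Motifs of factors known to act on respiratory genes were then looked for in the windows on both strands. The motif of NRF1 (GCGCA and GCGC with any base between them) was present for 8 of 38 members (21.1%) and for 7.4% of protein-coding genes. The motif of GABP (CCGGAAGT) was present for 8 members (21.1%) and for 5.9% of protein-coding genes, and the motif of the estrogen-related receptors (ERR, AAGGTCA) for 4 members (10.5%) and 4.6%, respectively. Atp5g3, Atp5k and Atp5h held more than 1 of the 3, at separate positions, and a palindromic NRF1 match was counted once per gene. The windows of 17 members held at least 1 of the 3. Those of the heart forms Cox7a1 and Cox8b, the liver form Cox7a2 and Cox19 were among the others, which says only that these letters are not in the window. Examples with the motif in capitals, 5′ to 3′ on the strand of the gene, are an NRF1 match of a liver form, a GABP match of another liver form, an NRF1 match of complex III, and an ERR and a GABP match of complex V.
Cox6a1, chr5:115349101-115349130, minus strand: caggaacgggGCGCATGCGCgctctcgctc
Cox8a, chr19:7217604-7217633, minus strand: atttccgaaatACTTCCGGctcgggcgtcc
Uqcrc1, chr9:108936643-108936672, plus strand: cttccttacaGCGCTTGCGCctcagactcc
Atp5g3, chr2:73911360-73911389, minus strand: ttgttacaaagTGACCTTgagcgtcttccc
Atp5h, chr11:115419940-115419969, minus strand: ccaaggagagaACTTCCGGcaactctcttc

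Levels per transcript length (RPKM, which divides CPM by transcript length) spread widely over the members. In AAV9-GFP sham hearts the highest was Atp5b, the catalytic beta subunit of the ATP synthase head, at 1722 ± 78.3 RPKM (SD, n = 4), followed by its partner Atp5a1, the alpha subunit, at 1199.7 ± 15.7 RPKM. Cox6a2 reached 1176.5 ± 32.3 RPKM, and its range overlapped that of Atp5a1, so the order of these neighbors was not resolved. The other heart forms, Cox8b at 823 ± 44.3 RPKM and Cox7a1 at 666 ± 58.3 RPKM, also stood among the high members. The liver forms were lower than their partners, with Cox7a2 at 234 ± 11.9, Cox8a at 91.1 ± 10.6 and Cox6a1 at 63.3 ± 3.04 RPKM. The assembly factors, which insert heme and copper or fold subunits and are not part of the finished enzyme, ranged from 3.21 RPKM for Cox11, a copper chaperone, to 64.0 RPKM for Cox20, a chaperone of COX2. Of the 50-base transcript stretches of Cox11 and Cox20, 50.5% and 68.2%, respectively, also match another gene. The lowest member was Cox6b2, the testis form of subunit 6b, at 1.75 ± 0.38 RPKM.

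**Figure D1:**
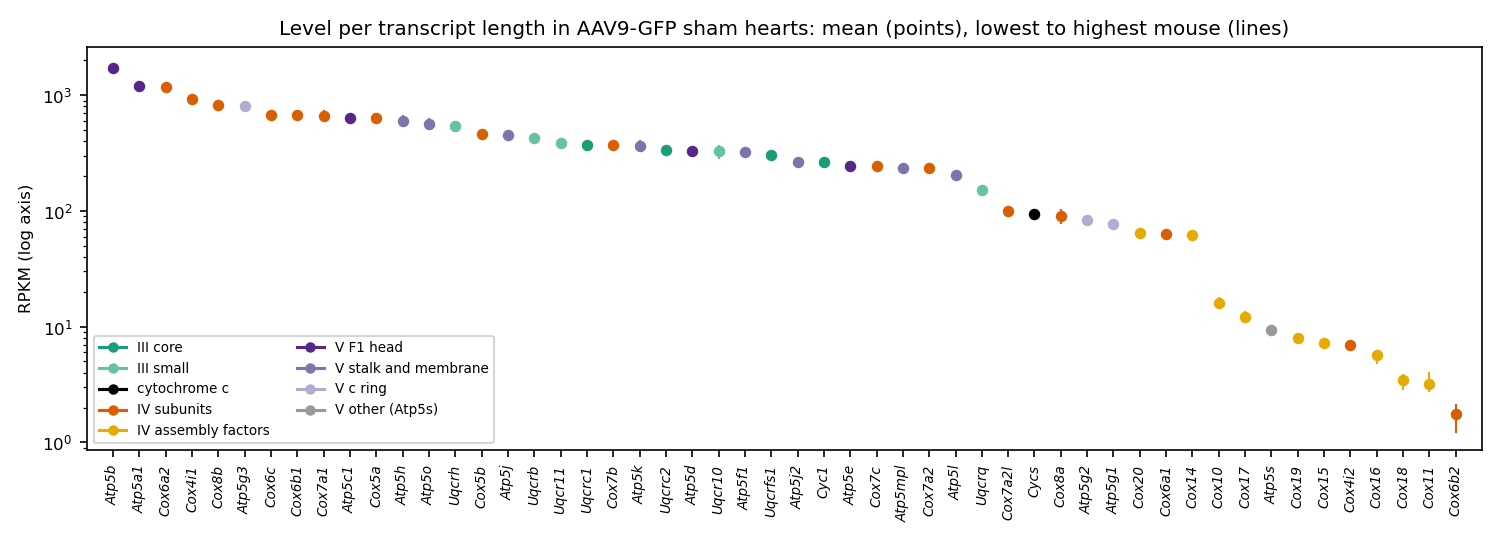
Mean RPKM of the 52 members in AAV9-GFP sham hearts on a log axis, ordered from highest to lowest, with lines from the lowest to the highest of 4 mice and colors for roles. Atp5b at 1722 RPKM, Atp5a1 and the heart form Cox6a2 stand at the left, and assembly factors at the right, with Cox6b2 lowest at 1.75 RPKM.

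TAC lowered most of these genes in AAV9-GFP hearts. By edgeR's quasi-likelihood test, 35 of 52 members fell and 1 rose at an adjusted p under 0.05, where 17.4% of all 16857 genes tested were called and 8.92% were called lower. The median log2 fold change was -0.24 over the members and 0.005 over all genes. The 4 TAC mice all lay below the 4 sham mice for 34 members, against 10.2% of all genes. With each mouse left out in turn, 21 of the 36 called members kept the call in all 16 fits, and 3 (Cycs, Cox20 and Atp5l) lost it in more than 50% of them. Summed over a complex, the mean level differed by -15.0% for complex III, -18.7% for complex IV, -19.7% for complex V and -0.37% for the assembly factors of complex IV. These sums, which add different genes, were not tested.

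**Figure D2:**
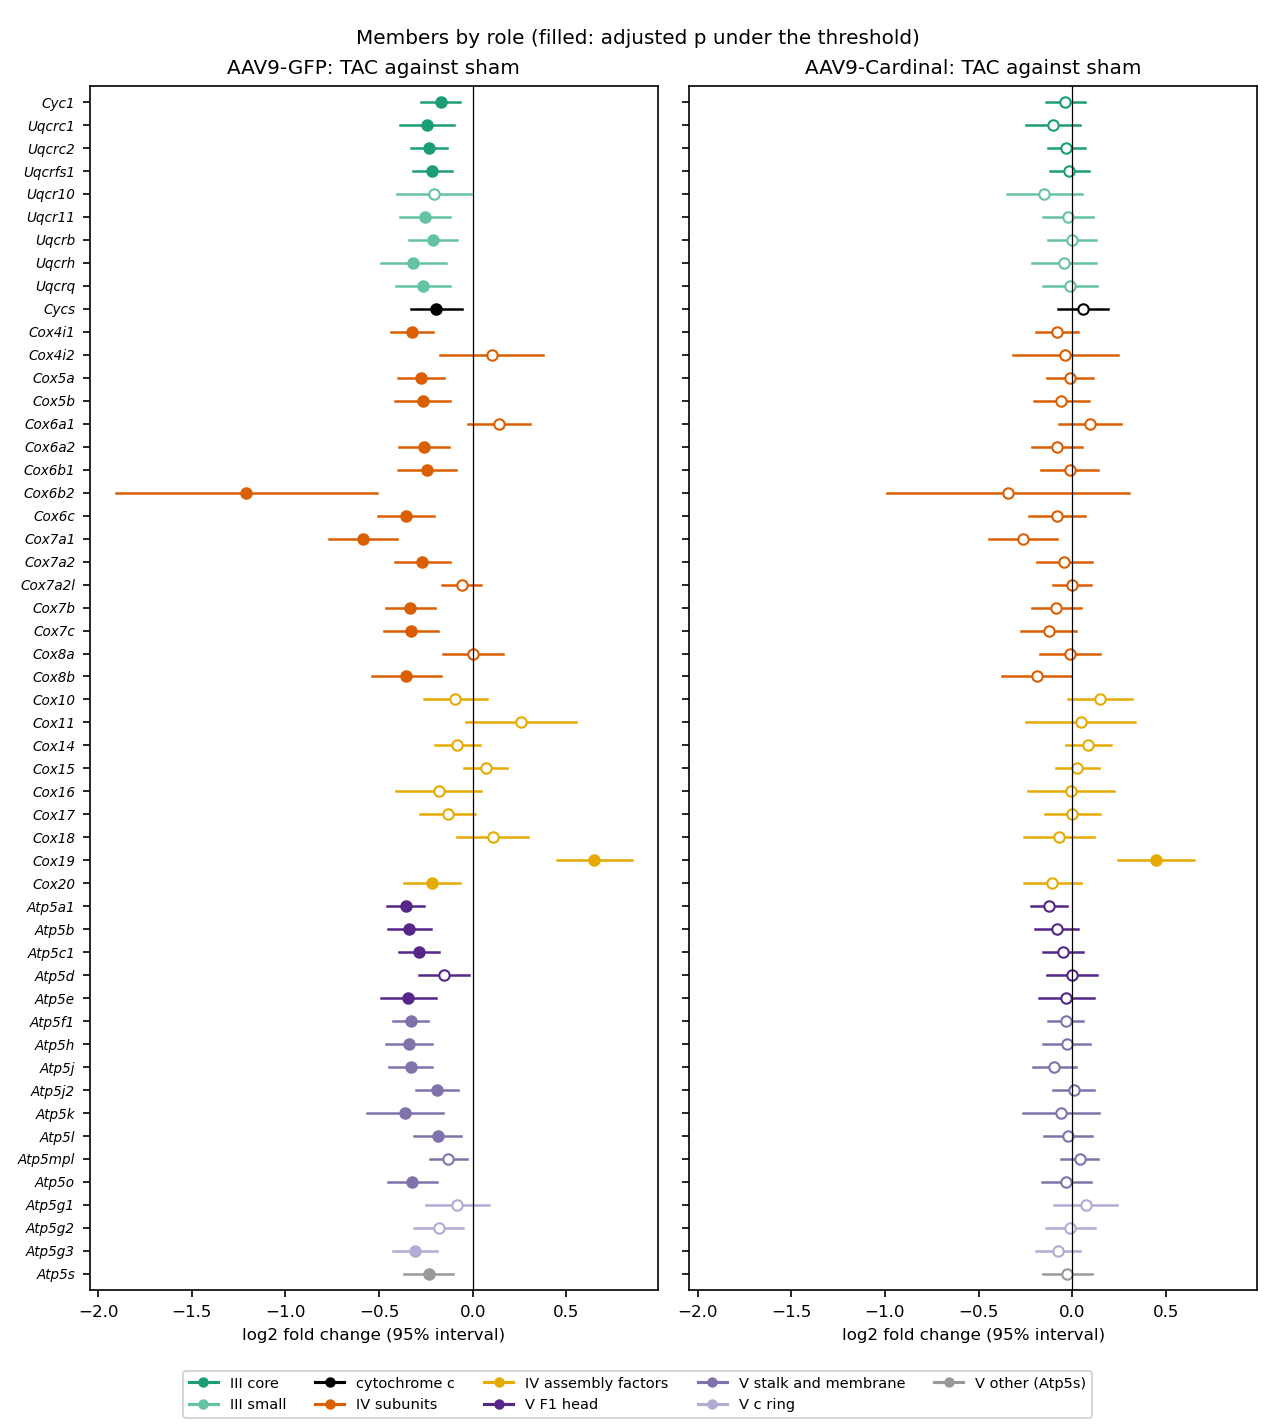
Log2 fold change of TAC against sham with its 95% interval for each member, in AAV9-GFP hearts at left and AAV9-Cardinal hearts at right, grouped and colored by role, with filled points at an adjusted p under 0.05. At left 35 members are filled below 0, and at right the only filled point is Cox19 at 0.45.

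Complex V, the largest group of members, held the most called members, 13 of 17, with a median log2 fold change of -0.31. The share of members called was higher in complex III, given below. In AAV9-GFP hearts, Atp5a1 was measured at 2912, 2973, 3005 and 2967 CPM in the sham mice and at 2331, 2160, 2390 and 2368 CPM in the TAC mice. It fell by 0.36 on the log2 scale (SE 0.05, adjusted p = 0.00013), and the groups did not overlap. Atp5b stood at 3112, 3322, 3478 and 3283 CPM after sham surgery and at 2524, 2424, 2703 and 2777 CPM after TAC, again without overlap, a log2 fold change of -0.34 (adjusted p = 0.00064). Of the other subunits of the head, Atp5c1, the gamma subunit that rotates within it, fell by 18.1% and Atp5e, the epsilon subunit, by 21.2%. Atp5d, the delta subunit, did not pass the test (log2 fold change -0.16, adjusted p = 0.10).

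Of the stalk and membrane part of complex V, 7 of 8 members fell. For Atp5f1, subunit b of the peripheral stalk, the sham mice had 511, 521, 528 and 529 CPM and the TAC mice 409, 403, 443 and 406 CPM. The decrease was 0.33 on the log2 scale (SE 0.04, adjusted p = 0.00016) without overlap. Atp5k, subunit e at the dimer interface, fell by 22.3%, Atp5j, coupling factor 6, by 20.6% and Atp5o, the protein that joins stalk and head, by 20.1%. Atp5h, subunit d, had a log2 fold change of -0.34 (adjusted p = 0.001). The smallest decreases of the called members of this part were those of Atp5j2, subunit f (12.5%), and Atp5l, subunit g (12.2%, adjusted p = 0.041). The call of Atp5l was lost in 10 of 16 fits with single mice left out (adjusted p 0.024 to 0.15). Atp5mpl, a small membrane protein of the enzyme, had a log2 fold change of -0.13 (adjusted p = 0.071).

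The c ring, which turns as protons pass, is made of an identical mature protein from 3 genes. Only Atp5g3, the most abundant of them per length at 814 RPKM in AAV9-GFP sham hearts, fell, by 19.3% (adjusted p = 0.0015). It had 574, 592, 576 and 582 CPM in the sham mice and 447, 457, 504 and 467 CPM in the TAC mice, without overlap. Atp5g2 missed the threshold (-0.18 on the log2 scale, adjusted p = 0.057), and Atp5g1 stood at -0.08 (adjusted p = 0.54). The log2 ratio of Atp5g1 to Atp5g3 counts was higher by 0.23 after TAC, without overlap between the groups (exact two-sided permutation p = 0.028571, the smallest that 4 against 4 mice allow, 0.13 after Benjamini-Hochberg adjustment over 32 ratio comparisons). Atp5s, the coupling factor B protein, fell by 15.0%.

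In complex III, 8 of 9 members fell and the median log2 fold change was -0.23. All 4 core genes were lower. Uqcrc2, a core protein, had 632, 643, 656 and 641 CPM in sham mice and 535, 511, 577 and 564 CPM in TAC mice, a decrease of 15.0% (adjusted p = 0.0028) without overlap. Uqcrc1, the other core protein, fell by 15.6%, the iron-sulfur protein Uqcrfs1 by 13.9% and cytochrome c1 (Cyc1) by 11.2%. Among the small subunits, Uqcrh, the hinge protein, fell most, by 19.8%, with 283, 295, 309 and 293 CPM after sham surgery and 232, 235, 274 and 206 CPM after TAC, without overlap. Uqcr10 had a log2 fold change of -0.21 and did not pass the test (adjusted p = 0.15). Cycs, the soluble carrier between complexes III and IV, fell by 12.6% (adjusted p = 0.046, and 0.016 to 0.14 with single mice left out, where 11 of 16 fits lost the call). Its groups overlapped, with 290, 268, 295 and 314 CPM in sham and 245, 252, 282 and 241 CPM in TAC hearts.

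**Figure D3:**
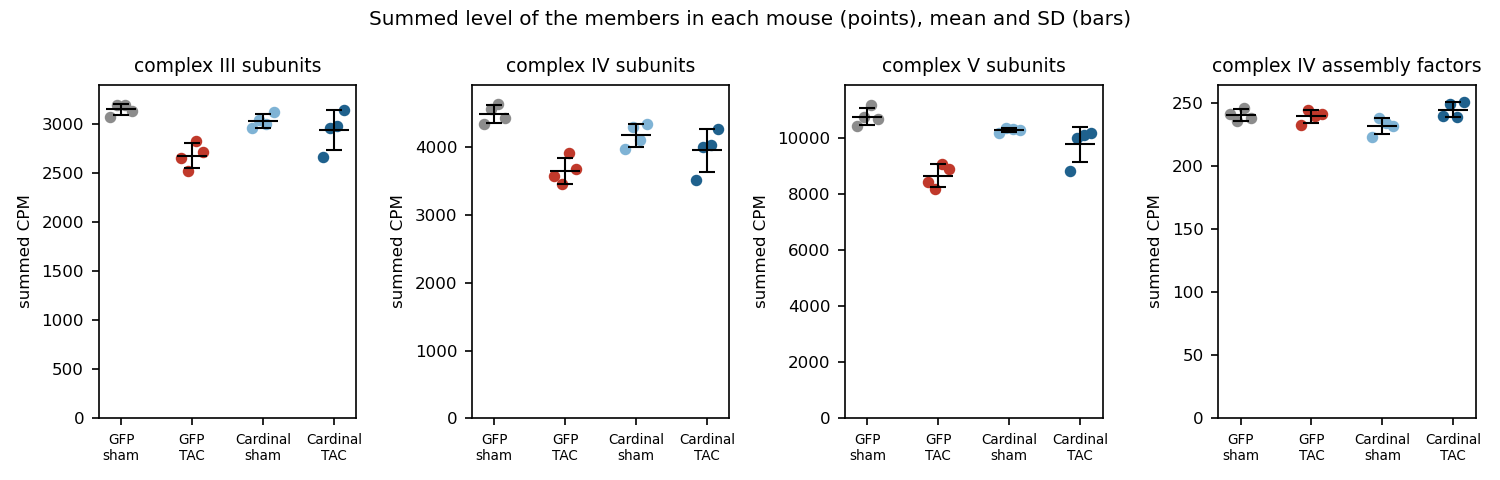
Summed CPM of the members of each complex in each mouse (points), with the mean and SD of 4 mice per group. For complexes III, IV and V the 4 AAV9-GFP TAC mice lie below the 4 AAV9-GFP sham mice, and the lowest AAV9-Cardinal TAC mouse is replicate 1, at 8844 CPM for complex V.

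In complex IV, 12 of 16 subunits fell, with a median log2 fold change of -0.27. Cox7a1 (chr7:30184144-30186078, plus strand, GRCm38), the heart form of subunit 7a, had 242, 272, 289 and 244 CPM in the sham mice and 178, 159, 190 and 170 CPM in the TAC mice. The decrease was 33.5% (log2 fold change -0.59, SE 0.09, adjusted p = 0.00031), and the highest TAC mouse lay well below the lowest sham mouse. Cox6c, a small membrane subunit, fell by 21.9%, Cox7b by 20.6% and Cox7c by 20.5%. Cox4i1, the common form of the regulatory subunit 4, had 688, 709, 722 and 696 CPM in sham and 571, 513, 580 and 582 CPM in TAC hearts, a decrease of 20.2% (adjusted p = 0.00067). Cox5a, Cox5b and Cox6b1 fell by 17.4%, 17.0% and 15.6%, respectively. The lung form Cox4i2 (0.10 on the log2 scale, adjusted p = 0.67) and Cox7a2l, which helps complexes III and IV associate (-0.06, adjusted p = 0.45), did not pass the test.

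Cox6b2 had the largest fitted change, a log2 fold change of -1.21 (SE 0.33, adjusted p = 0.019), at the lowest counts of all members. Its raw counts were 26, 15, 23 and 21 in the sham mice and 11, 11, 4 and 15 in the TAC mice. In raw counts the groups touched at 15, while in CPM they did not overlap. With single mice left out the log2 fold change ranged from -1.45 to -0.95, and the call was lost without AAV9-GFP sham replicate 1 (adjusted p = 0.056).

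The 9 assembly factors of complex IV were mixed, and the difference from the subunits was not tested. Cox19 (chr5:139336189-139351418, minus strand), a small protein of the intermembrane space involved in copper delivery, rose with 19.0, 21.2, 19.1 and 19.7 CPM in the sham mice and 30.9, 35.1, 27.1 and 30.8 CPM in the TAC mice. The increase was 56.9% (log2 fold change 0.65, SE 0.09, adjusted p = 0.00028), and all TAC mice lay above all sham mice. Cox20 fell by 0.22 on the log2 scale (adjusted p = 0.046, and 0.031 to 0.13 with single mice left out, where 10 of 16 fits lost the call). The other 7 factors had log2 fold changes between -0.18 for Cox16 and 0.26 for Cox11 and did not pass the test. Cox10, which makes heme O, and Cox17, the copper donor, stood at -0.09 and -0.13.

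Markers of cell types moved along with these genes in AAV9-GFP hearts. Cardiomyocyte markers fell for 6 of 8 genes, with a median log2 fold change of -0.30, and their sum per mouse went from between 50159 and 52680 CPM to between 39528 and 45787 CPM. Fibroblast markers rose for 5 of 8 genes, from a sum between 519 and 588 CPM to one between 904 and 1169 CPM. Endothelial markers rose for 2 of 7 genes. Of all genes tested, 8.92% were called lower and 8.49% higher. In whole heart tissue, fewer cardiomyocytes and less RNA of these genes per cardiomyocyte cannot be told apart, and the part of the markers in the result was not tested. Without TMM factors, which moved the median of all genes from 0.005 to 0.16, 15 members fell and 5 rose (Cox6a1, Cox11, Cox15, Cox18 and Cox19), where 29.1% of all genes were called and 4.04% were called lower, and the median of the members was -0.08.

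Outside the symbol rule, the listed subunits of the same chain also fell, while most other listed factors and regulators were not called. Of all genes tested in this comparison, 8.92% were called lower and 8.49% higher. All 6 subunits of complexes III to V encoded by mitochondrial DNA were lower (median log2 fold change -0.29), among them mt-Co1, the catalytic subunit of complex IV, at -0.30 (adjusted p = 0.00028). All 4 subunits of complex II fell, with Sdha, its flavoprotein, at -0.50 (adjusted p = 6.1e-05). Of 27 other factors of complexes III to V, 5 fell and 1 rose, and Surf1, an assembly factor of complex IV, was among the former (-0.26). Of 10 transcriptional regulators, Ppara, a receptor for fatty acids, fell (-0.57, adjusted p = 0.0064), and the other 9 did not pass the test. Atpif1, the inhibitor of ATP synthase, stood at -0.03 (adjusted p = 0.88).

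In AAV9-GFP hearts the heart forms of complex IV fell after TAC, and 2 of the 3 liver forms did not pass the test. Cox8b (chr7:140898945-140900446, minus strand) had 283, 311, 309 and 282 CPM in AAV9-GFP sham mice and 224, 210, 260 and 233 CPM in AAV9-GFP TAC mice, a decrease of 21.8% (adjusted p = 0.011). Its liver form Cox8a (chr19:7215153-7217616, minus strand) had 43.0, 52.5, 56.6 and 48.4 CPM against 47.0, 54.0, 52.9 and 46.9 CPM. The former groups did not overlap and the latter did (log2 fold change 0.00, adjusted p = 0.99). Cox6a2 (chr7:128205435-128206387, minus strand) had 783, 809, 827 and 781 CPM in sham mice and 650, 656, 701 and 663 CPM in TAC mice, a decrease of 16.6% (adjusted p = 0.0095). Cox6a1 (chr5:115345642-115348981, minus strand), its liver form, had 33.7, 37.0, 36.1 and 37.7 CPM against 35.1, 43.3, 43.7 and 37.3 CPM. Cox6a2 was separated between the groups, and Cox6a1 had a log2 fold change of 0.14 with overlap (adjusted p = 0.25).

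Subunit 7a differed in that the liver form also fell. Cox7a2 (chr9:79755361-79759878, minus strand) had 148, 148, 165 and 156 CPM in sham mice and 121, 120, 140 and 130 CPM in TAC mice, a decrease of 17.0% (adjusted p = 0.014). No TAC mouse reached the lowest sham mouse, and the decrease of the heart form Cox7a1, given above, was 33.5%.

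The ratio of both forms within a mouse does not depend on how libraries are scaled. The mean log2 ratio of Cox6a2 to Cox6a1 counts was 4.47 ± 0.07 (SD, n = 4) in AAV9-GFP sham hearts and 4.07 ± 0.13 in AAV9-GFP TAC hearts. For Cox7a1 to Cox7a2 it was 0.76 ± 0.10 and 0.45 ± 0.08, and for Cox8b to Cox8a 2.57 ± 0.11 and 2.20 ± 0.17. After TAC the ratios differed by -24.1%, -19.7% and -22.3%, respectively, and in each case the TAC mice lay below the sham mice without overlap. Each exact two-sided permutation p was 0.028571, the smallest possible, and 0.13 after adjustment over 32 comparisons of 8 ratios. With so few labelings, an adjusted p under 0.05 was possible only if most of the 32 comparisons stood at or near that smallest p. Of those 8 ratios, 6 were separated between the groups in AAV9-GFP hearts. As a share of both forms per length, Cox6a2 went from 94.9% to 93.4%, Cox7a1 from 74.0% to 69.5% and Cox8b from 90.1% to 87.5%, so the heart form remained the larger of each pair.

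**Figure D4:**
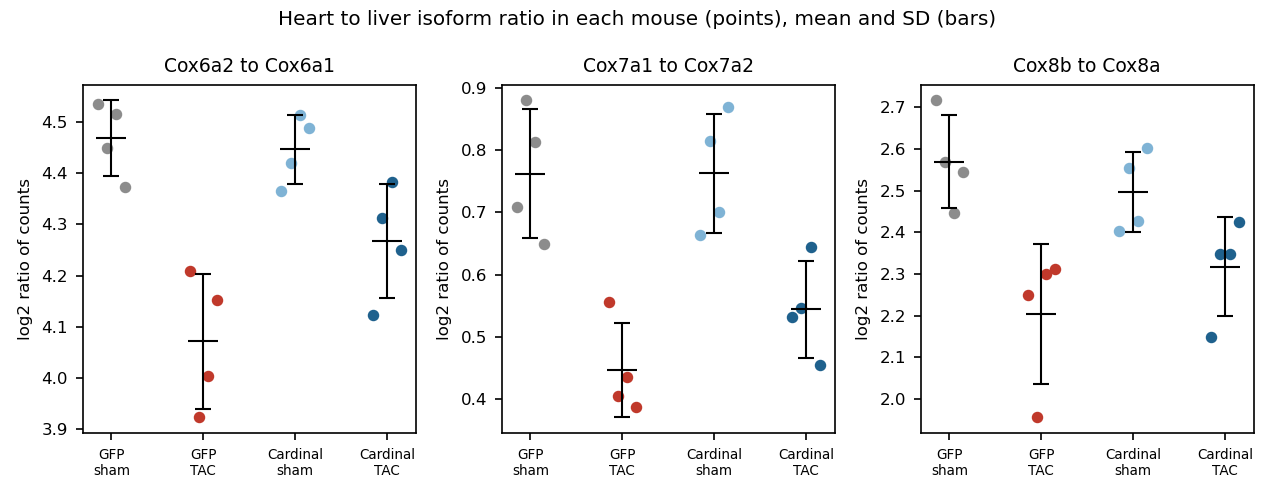
Log2 ratio of the counts of the heart form to the liver form in each mouse (points), with the mean and SD of 4 mice per group. The axes do not start at 0, and in all 3 panels the AAV9-GFP TAC mice lie below the AAV9-GFP sham mice, as do the AAV9-Cardinal TAC mice below their sham group for Cox7a1 to Cox7a2.

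Other paralog ratios changed less evenly in AAV9-GFP hearts. The ratio of Cox4i2 to Cox4i1 was 33.1% higher after TAC and that of Cox7a2l to Cox7a2 15.6% higher, each without overlap (exact permutation p = 0.028571). Skeletal muscle and brown fat also use heart forms. Of 5 skeletal muscle markers, Myh1, Myh2, Myh4 and Actn3 had 0 counts in all mice and Tnnt3 at most 14, and their sum was 0.087 to 0.61 CPM in AAV9-GFP TAC mice, at most 0.098 CPM in AAV9-GFP sham mice and 0 in all AAV9-Cardinal mice. Of 6 fat markers, Ucp1 and Retn had 0 counts, Adipoq, Plin1 and Cidec at most 13, 5 and 3, and Cidea 241 to 408 in every mouse, and the part of these markers in the ratios was not tested. Fibroblast markers, which rose after TAC in AAV9-GFP hearts, summed highest in AAV9-GFP TAC replicate 3, at 1169 CPM. That mouse had the lowest log2 ratios of its group for Cox6a2 to Cox6a1 (3.92) and Cox8b to Cox8a (1.96). For Cox7a1 to Cox7a2 the lowest was replicate 7 (0.39). In whole tissue, more cells of other types and a shift within cardiomyocytes cannot be told apart. The part of fibroblast markers was not tested either. With single mice left out, the difference of Cox8b to Cox8a kept its direction, with an exact permutation p of 0.057 without AAV9-GFP TAC replicate 3 and 0.028571 in the other 7 cases. Of transcript stretches as long as the reads, 12.3% of those of Cox6a1 and 3.3% of those of Cox6a2 also match another annotated gene, against 0 for Cox7a1, Cox7a2, Cox8a and Cox8b. Cox6a2 also overlaps the antisense gene Itgad, whose counts summed to 7 over all mice.

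In AAV9-Cardinal hearts no member fell after TAC and 1, Cox19, rose, where 6.48% of all genes were called by edgeR's test, 3.38% lower and 3.1% higher. At an unadjusted p under 0.05 there were 4 members, against 21.8% of all genes, and DESeq2 called 1 member lower, against 9.19% of all genes called in either direction. The median log2 fold change was -0.03 over the members, and -0.0005 over all genes. Cox19 had 16.3, 19.4, 18.3 and 22.2 CPM in sham mice and 26.2, 24.9, 23.8 and 28.7 CPM in TAC mice, a log2 fold change of 0.45 (SE 0.09, adjusted p = 0.014) without overlap. Mouse by mouse, Atp5a1 stood at 2866, 2799, 2837 and 2875 CPM after sham surgery and at 2348, 2687, 2684 and 2722 CPM after TAC. The TAC mice were all lower, by 0.12 on the log2 scale, and the test was not passed (adjusted p = 0.13).

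Replicate 1 of AAV9-Cardinal TAC was the lowest of its group for many members, as it was for Atp5a1. Atp5b followed the same pattern, with 3151, 3133, 3218 and 3147 CPM in sham mice and 2683, 3046, 3115 and 3099 CPM in TAC mice. In this mouse fibroblast markers summed to 990 CPM, against 530 to 573 CPM in the other 3 mice of its group, and cardiomyocyte markers to 45697 CPM, against 48448 to 51094 CPM. The part of these markers in its member levels was not tested. Without this mouse the median log2 fold change after TAC was 0.01 and 21 members had a negative value, instead of 41 with it.

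The heart forms of complex IV stood below sham in AAV9-Cardinal hearts without passing edgeR's test across genes. Cox7a1 had 219, 258, 230 and 257 CPM in sham mice and 171, 204, 220 and 207 CPM in TAC mice (log2 fold change -0.26, adjusted p = 0.082), with overlap of 1 TAC mouse. It was the member called lower by DESeq2 (adjusted p = 0.041) and by edgeR with a transcript length offset (adjusted p = 0.029). Cox8b had a log2 fold change of -0.19 (adjusted p = 0.22) and Cox6a2 one of -0.08 (adjusted p = 0.50). Cox8b was measured at 245, 271, 264 and 311 CPM after sham surgery and at 206, 247, 236 and 266 CPM after TAC, and Cox6a2 at 726, 773, 759 and 761 CPM and at 607, 737, 710.1 and 798 CPM, so both overlapped. The liver forms Cox7a2 (-0.04), Cox8a (-0.01) and Cox6a1 (0.10) were closer to 0 or above it, and none was called.

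Within mice, the ratio of Cox7a1 to Cox7a2 differed by -0.22 on the log2 scale after TAC in AAV9-Cardinal hearts, without overlap (exact permutation p = 0.028571, adjusted 0.13). With single mice left out it ranged from -0.25 to -0.18, and the exact permutation p was 0.057 in 5 of 8 cases. The ratios of Cox6a2 to Cox6a1 and of Cox8b to Cox8a both differed by -11.7%, with overlap (exact permutation p = 0.057 each). As shares per length, Cox6a2 went from 94.8% to 94.2%, Cox7a1 from 74.0% to 71.0% and Cox8b from 89.6% to 88.4%.

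**Figure D5:**
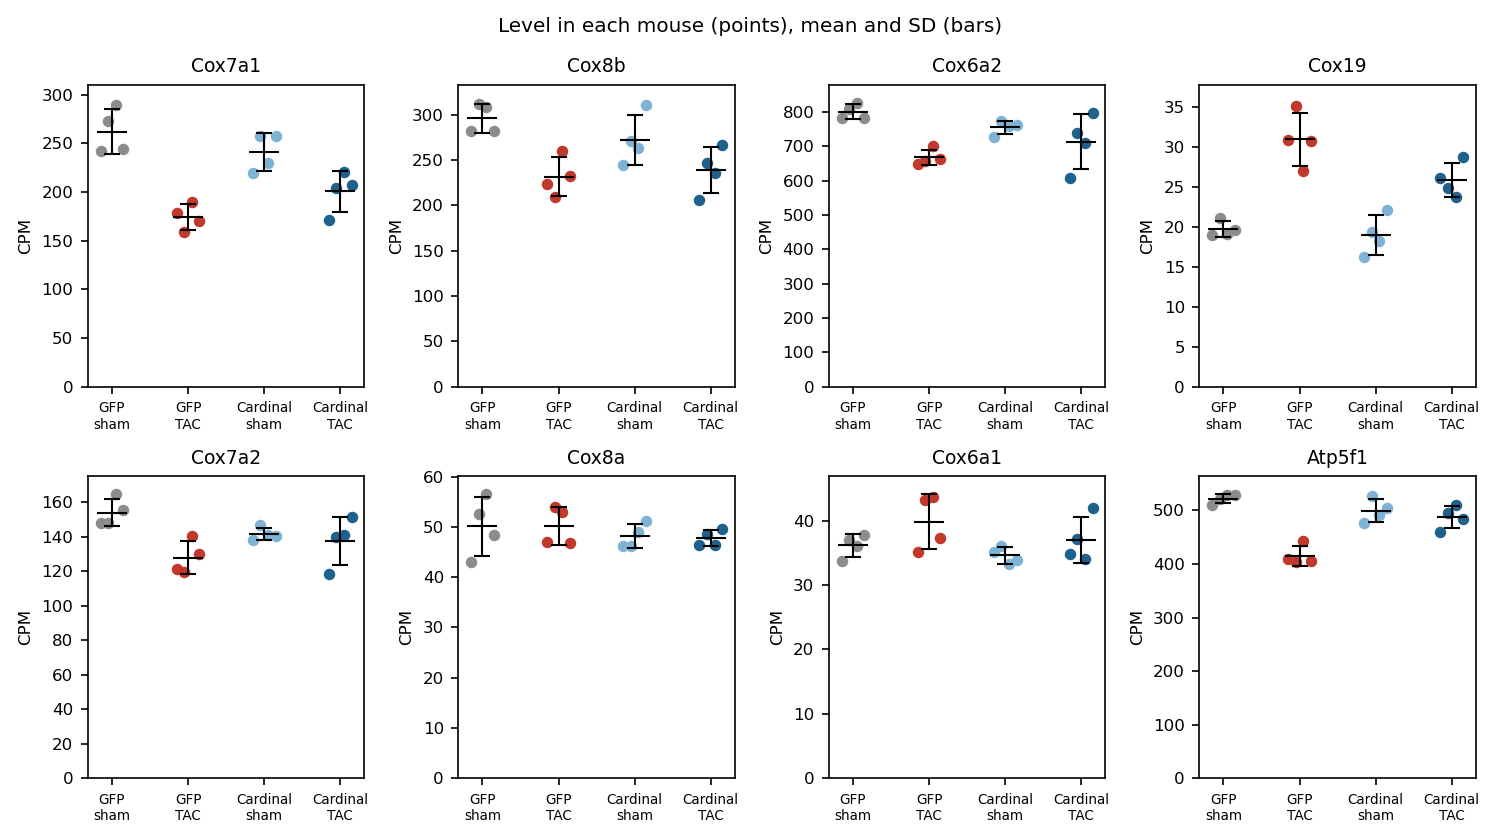
CPM in each mouse (points), with the mean and SD of 4 mice per group, for the heart forms Cox7a1, Cox8b and Cox6a2 above their liver forms and for Cox19 and Atp5f1. Cox19 is higher after TAC under both viruses, and Atp5f1 is separated between AAV9-GFP TAC and the other 3 groups, whose lowest mouse has 460.3 CPM.

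Before any load, the virus alone gave no call. Between AAV9-Cardinal and AAV9-GFP sham hearts, 0 of 52 members passed edgeR's test, where 0.0119% of all genes did, and DESeq2 called 0. At an unadjusted p under 0.05 there were 4 members, namely Cox18, a membrane insertase for COX2 (0.24 on the log2 scale), Uqcrq, a small subunit of complex III (-0.16), Atp5mpl (-0.11) and Cox4i1 (-0.11), each with an adjusted p of 1. Of all genes, 2.59% had such a p. The median was -0.07, and 48 members had a negative log2 fold change, as did 50.1% of all genes. Many members varied together between mice of a group. Their median correlation with the other members was 0.61 for Uqcrc2, 0.56 for Cox4i1 and 0.58 for Atp5b, though -0.44 for Cox16. Counts of members by direction, here and in the comparisons below, are therefore not counts of independent genes. The groups did not overlap for 10 members, 9 of them lower with AAV9-Cardinal, against 2.36% of all genes. For the heart to liver ratios, the differences between viruses in sham hearts were -0.02, 0.00 and -0.07 on the log2 scale for subunits 6a, 7a and 8.

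Between the viruses under TAC, 47 of 52 members had a positive log2 fold change, as did 48.3% of all genes. None passed edgeR's test, where 0.101% of all genes did. There were 22 members at an unadjusted p under 0.05, against 15% of all genes, and the median was 0.11. Atp5f1 came closest. It had 409, 403, 443 and 406 CPM with AAV9-GFP and 460.3, 496, 510.2 and 484 CPM with AAV9-Cardinal, a log2 fold change of 0.23 (SE 0.04, adjusted p = 0.055) without overlap. Of its transcript stretches, 38.7% also match another gene. Cycs, at 245, 252, 282 and 241 CPM against 283, 314, 315 and 293 CPM, was the other member without overlap (0.24, adjusted p = 0.10), which held for 6.77% of all genes. Atp5a1 stood at 0.17 (adjusted p = 0.10), with overlap through AAV9-Cardinal TAC replicate 1.

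The call between the viruses under TAC depended on the method and on a single mouse. DESeq2 called 10 members higher with AAV9-Cardinal, of 48 to which it gave an adjusted p, and 4.75% of all genes with one in either direction. Without AAV9-Cardinal TAC replicate 1, edgeR called 12 members higher. In that fit it called 3.13% of all genes in either direction and 1.64% lower. Cardiomyocyte markers had a median log2 fold change of 0.23 in the same comparison, with 0 of 8 called. Fibroblast markers had a median of -0.52, with all 8 lower, 6 at an unadjusted p under 0.05 and 0 called, and macrophage markers one of -0.21, with 7 of 8 lower and 0 called. The part of these markers in the member values was not tested.

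Whether the viruses differed in their response to TAC was tested as an interaction, and no member passed edgeR's test, where 0.0119% of all genes did. The median difference was 0.21 on the log2 scale, positive for 45 members and 49.9% of all genes, and 29 members and 10.2% of all genes had an unadjusted p under 0.05. The smallest p-values belonged to Atp5f1 (0.30, SE 0.06), Atp5h (0.31, SE 0.08) and Atp5a1 (0.23, SE 0.07), each with an adjusted p of 0.30. DESeq2 called 11 of 42 members with an adjusted p and 5.53% of all such genes, and edgeR called 3 members and 0.463% of all genes without AAV9-Cardinal TAC replicate 1. Cardiomyocyte markers had a median difference of 0.23, fibroblast markers one of -0.44 and macrophage markers one of -0.18, and their part was not tested. The decrease after TAC in AAV9-GFP hearts and its absence among the calls in AAV9-Cardinal hearts were therefore not shown by edgeR to differ for any single gene.

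The heart to liver ratios gave the same outcome for the interaction. The decrease after TAC was smaller with AAV9-Cardinal by 0.22 on the log2 scale for Cox6a2 to Cox6a1 (exact permutation p = 0.064), 0.10 for Cox7a1 to Cox7a2 (p = 0.29 by the same permutation) and 0.19 for Cox8b to Cox8a (p = 0.15 by the same permutation), with adjusted values of 0.31, 0.39 and 0.31 over 8 ratios.

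Among members with a promoter window, 25 of 38 fell after TAC in AAV9-GFP hearts. Of those with a motif, 6 of 8 with NRF1, 3 of 8 with GABP and 4 of 4 with ERR (Atp5g3, Atp5e, Atp5k and Atp5l) fell. These counts are a description, and no test was made.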

How the data were processed

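Poly(A)-selected RNA of 16 mouse heart apices was read as single-end 50-base DNBSeq reads. The deposited values are raw counts for every Ensembl gene in each of the 16 mice, which the authors left without normalization. The submitters' processing notes name FastQC, HISAT2 2.1.0, edgeR 3.26.1 and GRCm38. The counting program, annotation and use of strand are not given in the sources used here. Some members share sequence with other genes: 88.7% of 50-base stretches for Cox16, 87.4% for Atp5g2 and 84.8% for Atp5l. Over 10% of stretches were shared for 21 members. Antisense genes overlap 16 members, among them Cox6a2, Cox4i1, Cox5a, Atp5a1, Atp5d, Atp5f1, Atp5j, Atp5o, Cox20 and Uqcrc2. These values are uncertain to that degree.

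Symbols came from GENCODE M21 (55480 of 55573 IDs matched). edgeR 4.0.16 in R 4.3.3 was applied to the counts (TMM, expression filter leaving 16857 genes, quasi-likelihood fit of all 16 mice with comparisons as contrasts, Benjamini-Hochberg over all genes, threshold 0.05). The common coefficient of variation was 0.128. CPM used TMM library sizes. RPKM also used transcript length. Ratios were tested with exact two-sided permutations, 4 mice against 4 (70 labelings), and the interaction of ratios by 4900 labelings, which was added after the data were seen. Those labelings exchange the virus label within sham and within TAC mice. They therefore take the virus to have no effect under either operation, which is more than an equal response to TAC. Scripts were tested on simulated data. Figures used matplotlib 3.10.9, and tables used Python 3.11.15 with scipy 1.17.1, pandas 2.3.3 and numpy 2.4.6.

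The members and lists were chosen with earlier results of these data known. Named were the heart and liver forms, up to 12 members per direction past the threshold by size of change, the 3 with the smallest p where none passed, and the most and least abundant member of each role, with others added to complete a role. Alternatives were DESeq2 1.42.0, no TMM factors, no filter on low counts, no mitochondrially encoded genes, GC and length offsets, a replicate block, a threshold of 0.01 and each mouse left out. Other experiments of the study were not analysed here.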

Additional observations from a re-analysis of the deposited data

Results flagged for a closer look

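In groups of 4 mice, a mouse was singled out where its gap to the nearest other mouse, divided by the range of the group, exceeded Dixon's 95% critical value for 4 samples. Of 240 groups examined, 17 held such a mouse. Chance gives about 1 in 20, which is 12 groups. The groups are not independent, since the sum of complex V includes Atp5a1 and Atp5b, so 17 and 12 were not compared by a test. AAV9-Cardinal TAC replicate 1 accounted for 5 of them, always on the low side. In that mouse Atp5a1 stood at 2348 CPM, Atp5b at 2683 CPM, Atp5h at 313.7 CPM and Uqcrc2 at 562 CPM, and the summed level of complex V was 8844 CPM, against 9998 to 10195 CPM in the other 3. AAV9-Cardinal sham replicate 4 had the lowest library total, 16441997, and a low Atp5d at 278.3 CPM. In AAV9-GFP TAC hearts, Cox4i1 at 513 CPM and Cox6c at 240.0 CPM were low in replicate 3. In replicate 4 of that group Atp5f1 was high at 443 CPM and Cox16 low at 8.05 CPM. In AAV9-GFP sham hearts, Atp5h at 411 CPM and Atp5o at 521 CPM were high in replicate 3, Uqcrc1 at 657 CPM in replicate 2 and Cox10 at 51.5 CPM in replicate 4. In AAV9-Cardinal sham hearts, Atp5c1 was high at 742 CPM in replicate 2 and Atp5o low at 429 CPM in replicate 1.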

How the results depend on the processing

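Of the values of the comparisons themselves under other settings, 506 kept their direction and side of the threshold or moved within the spread between mice. A further 18 moved further and 6 turned direction. The heart to liver ratios were held here to an unadjusted exact permutation p under 0.05, which 6 values lost and 1 gained. After adjustment no ratio had a permutation p below 0.13. Of 2077 such values of single genes, 1924 kept both direction and side of the adjusted threshold. Among the rest, 101 lost and 27 gained that threshold, and 25 turned direction. DESeq2 called 1 member lower after TAC with AAV9-Cardinal, 10 higher between the viruses under TAC and 11 in the interaction. Without TMM factors, 15 members fell and 5 rose in AAV9-GFP hearts, and the medians were -0.080 there, 0.021 between the viruses under TAC and 0.083 in the interaction. Without mitochondrially encoded genes, 1 member was called between the viruses under TAC. With a transcript length offset, 1 fell with AAV9-Cardinal and 1 was called between the viruses under TAC. At a threshold of 0.01, 18 fell in AAV9-GFP hearts and 0 rose with AAV9-Cardinal. With both AAV9-Cardinal sham replicate 4 and AAV9-Cardinal TAC replicate 1 left out, an alternative chosen after seeing the data, 12 were called between the viruses under TAC and 3 in the interaction, whose median was 0.26. With each mouse left out in turn, 22 to 36 members fell in AAV9-GFP hearts (22 without AAV9-GFP TAC replicate 3). Between the viruses under TAC 0 to 12 were called (12 without AAV9-Cardinal TAC replicate 1, 1 without AAV9-GFP TAC replicate 4), and in the interaction 0 to 3. The log2 ratio differences ranged from -0.22 to -0.13 for Cox6a2 to Cox6a1 with AAV9-Cardinal, from -0.053 to 0.0058 for the same ratio between the viruses in sham hearts, from -0.25 to -0.18 for Cox7a1 to Cox7a2 with AAV9-Cardinal, from -0.038 to 0.039 for that ratio between the viruses in sham hearts, and from -0.40 to -0.28 for Cox8b to Cox8a with AAV9-GFP. Apart from changes that follow from fewer mice or a stricter threshold, the cause was not tested.

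The direction of single members near 0 turned under some alternatives. Without TMM factors, log2 fold changes in AAV9-GFP hearts were 0.10 for Cox7a2l, 0.067 for Cox10, 0.078 for Cox14, 0.025 for Cox17, 0.0041 for Atp5d, 0.078 for Atp5g1 and 0.029 for Atp5mpl, Cox8a stood at 0.025 with AAV9-Cardinal, and Cox8b at -0.048 between the viruses under TAC. For Cox8a, the value in AAV9-GFP hearts was -0.0049 without a filter on low counts and -0.050 with a GC offset, which gave 0.020 with AAV9-Cardinal and 0.0048 between the viruses under TAC. With both mice out, Cox7a2 stood at 0.021 and Cox8a at 0.032 with AAV9-Cardinal. With single mice left out, Cox8a ranged from -0.064 to 0.066 in AAV9-GFP hearts, from -0.031 to 0.018 with AAV9-Cardinal and from -0.126 to 0.0045 between the viruses in sham hearts, Cox7a2 from -0.088 to 0.027 with AAV9-Cardinal, and Cox8b from -0.010 to 0.11 between the viruses under TAC.

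Replicate numbers are shared between groups in the labels. Of 16 same-numbered pairs, 4 had correlated deviations over 0.1 (-0.04 to 0.21), all of them between mice numbered 1. The median correlation was 0.054 for same-numbered pairs and -0.013 for different-numbered pairs. The main fit did not use the numbers, and whether they mark a shared factor is not given and was not tested. With the number as a replicate block, 27 members fell and 1 rose in AAV9-GFP hearts, where 12.4% of all genes were called and 6.54% lower. With AAV9-Cardinal 0 rose, where 0.184% of all genes were called, and Cox19 (0.48) had an adjusted p of 0.16. The median of the members after TAC with AAV9-Cardinal was -0.071 under the block, against -0.031 in the main fit. There 12 members had an unadjusted p under 0.05 under the block, against 4 in the main fit. Between the viruses under TAC the median was 0.071 and 5 members had an unadjusted p under 0.05, and in the interaction it was 0.16 with 11 such members. Under the block Cox8a stood at 0.032 with AAV9-Cardinal and Cox8b at -0.047 between the viruses under TAC.

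At these depths, Cox6b2 rests on 4 to 29 counts per mouse, and changes in the least abundant members would not be resolved as finely as in the others.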
